A study of Homo sapiens with 3 samples.

Results

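HSPA5, HSP90B1, CANX and CALR encode 4 chaperones of the endoplasmic reticulum, and they are described here in RNA sequencing libraries of 95D, an established human lung cancer cell line. They were chosen by gene symbol, and 31 of 14338 listed regions carry 1 of the 4 symbols in the table that sets the glucose-deficient beside the control library. The table that sets the glutamine-deficient beside the control library has 31 of 14333, and the 4 genes stand among 5921 and 5917 genes. The members were picked with their values known, so their levels and ratios are given as a description.

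The libraries were 1 from cells kept 48 h without glucose, 1 from cells kept 48 h without glutamine and 1 from control culture, all of unmodified (WT) 95D cells. Per the labels' protocols, routine culture used 10% fetal bovine serum and both deprived media held 10% dialyzed serum. Whether the control had dialyzed serum in these 48 h was not given in the sources used here. One protocol covers all 3 libraries: RNA was captured from lysate with DAMER, a long non-coding RNA made in vitro and biotinylated, whereas the titles of the samples read as ordinary RNA sequencing. What the control library stands for, a pulldown or total RNA, is therefore not settled by the labels. Each condition is 1 library of 1 cell line, so differences lack a replicate check and p-values are left out.

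The endoplasmic reticulum folds secreted and membrane proteins. HSPA5 (BiP) is its HSP70, which binds unfolded chains and also holds the stress sensors inactive, and HSP90B1 (GRP94) is its HSP90. CANX (calnexin, membrane-bound) and CALR (calreticulin, soluble) are lectins that bind glycoproteins carrying a trimmed sugar and hold them until they are folded. When unfolded protein builds up, the sensors ATF6, IRE1 and PERK raise chaperone transcription, in part through the ER stress response element (ERSE) in chaperone promoters. Glucose supplies the sugars of N-linked glycans, and HSPA5 and HSP90B1 took their first name, glucose-regulated proteins, from their rise in glucose-starved cells. PERK signals through ATF4, the transcription factor whose RNA filled both deprived libraries.

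Promoter sequences of the 4 genes are shown because all 4 hold the same element. The element is known from chaperone promoters, so its presence in these 4 is no independent finding, and the shares of windows below only describe the search. The ERSE was searched as CCAAT and CCACG with any 9 bases between them, on both strands of RefSeq promoter windows (build GRCh38.p14), each 250 bases before to 50 bases after a gene's start, and all 4 genes matched that table by symbol. A match was present in 27 of 35116 windows (0.0769%), those of 25 of 27305 genes. Capitals mark the ERSE, and each window is written 5′ to 3′ on the strand of its gene.
HSPA5, chr9:125241294-125241593, minus strand: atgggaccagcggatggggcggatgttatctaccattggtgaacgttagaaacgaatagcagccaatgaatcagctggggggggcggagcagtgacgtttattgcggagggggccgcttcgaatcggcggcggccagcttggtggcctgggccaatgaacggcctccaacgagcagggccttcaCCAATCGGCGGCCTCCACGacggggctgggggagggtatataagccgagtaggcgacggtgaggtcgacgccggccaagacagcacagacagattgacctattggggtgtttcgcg
HSP90B1, chr12:103930160-103930459, plus strand: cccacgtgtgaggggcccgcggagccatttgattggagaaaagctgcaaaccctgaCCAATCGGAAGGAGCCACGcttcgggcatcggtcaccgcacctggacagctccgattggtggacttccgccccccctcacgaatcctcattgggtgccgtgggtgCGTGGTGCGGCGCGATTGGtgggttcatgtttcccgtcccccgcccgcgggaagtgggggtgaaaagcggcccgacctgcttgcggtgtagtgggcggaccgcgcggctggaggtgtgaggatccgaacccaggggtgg
CANX, chr5:179698679-179698978, plus strand: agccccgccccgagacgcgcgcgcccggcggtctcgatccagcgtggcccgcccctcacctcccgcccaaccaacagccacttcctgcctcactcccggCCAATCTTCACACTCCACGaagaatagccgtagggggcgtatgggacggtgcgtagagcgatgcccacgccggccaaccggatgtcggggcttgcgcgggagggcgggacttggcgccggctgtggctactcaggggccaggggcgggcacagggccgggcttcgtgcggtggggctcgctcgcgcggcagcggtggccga
CALR, chr19:12938359-12938658, plus strand: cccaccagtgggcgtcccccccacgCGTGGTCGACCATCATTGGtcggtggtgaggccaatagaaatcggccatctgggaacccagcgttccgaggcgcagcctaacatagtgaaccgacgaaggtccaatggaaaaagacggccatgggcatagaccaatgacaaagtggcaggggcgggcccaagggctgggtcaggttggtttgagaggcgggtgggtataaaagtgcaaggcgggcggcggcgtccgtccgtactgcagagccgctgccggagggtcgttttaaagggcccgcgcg

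The HSPA5 element ran from 66 to 48 bases before the start on the strand of the gene. HSP90B1 held 2 matches, 1 from 194 to 176 bases before the start on the strand of the gene and 1 from 89 to 71 bases before it on the opposite strand. The CALR match, 225 to 207 bases before the start, also lay on the opposite strand. RefSeq gives CANX 4 windows, and 3 of them held 1 and the same element, 151 to 133 bases before the start shown here, which is the first in the table. Read on the strand of the motif, the elements differ in the spacer (lower case) between the CCAAT box, where the factor NF-Y binds, and the CCACG that ATF6 or XBP1 contacts.
HSPA5: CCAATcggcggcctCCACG
HSP90B1, strand of the gene: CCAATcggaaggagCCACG
HSP90B1, opposite strand: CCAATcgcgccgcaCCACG
CANX: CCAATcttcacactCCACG
CALR: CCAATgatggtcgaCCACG

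The CCAAT box alone, which every ERSE match contains, was present in 34.6% of all windows on either strand. It occurred 5 times in the windows of HSPA5 and HSP90B1, a number that 0.359% of all windows reached, 4 times in that of CALR, which 0.991% reached, and once in that of CANX. The related element ERSE-II, searched as ATTGG and CCACG with any 1 base between them, was present in 0.0541% of windows, and the core of the amino acid response element bound by ATF4, TGATGNAA, in 3.62%. Neither had a match in any window of the 4 genes. These letters say nothing of whether a factor was bound in 95D cells.

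Of the 25 genes with an ERSE match, 8 had listed regions: the 4 chaperones, PDIA6, SERP1, XBP1 and EIF2A. PDIA6 is a protein disulfide isomerase, SERP1 a translocon-associated protein, XBP1 the transcription factor that IRE1 activates by splicing, and EIF2A a translation initiation factor. Their control levels were 63.9 RPM for PDIA6, 38.1 RPM for SERP1, 30.8 RPM for XBP1 and 28.4 RPM for EIF2A, and each had 0 fragments in both deprived libraries. RPM, the deposited unit, scales fragments to the library total and is summed here over the regions of a gene.

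The libraries differed in what filled them. Read from the fixed steps of the deposited values, 18775817 fragments were counted in the glucose-deficient, 18301611 in the glutamine-deficient and 3781862 in the control library. ATF4, its pseudogenes and RNF157, whose region is listed with the same values as that of the pseudogene ATF4P3, held all but 0.0689% of the glucose-deficient and 0.0790% of the glutamine-deficient fragments, while 99.97% of the control fragments lay outside this family. All other RNAs therefore shared 12936 and 14450 fragments in the deprived libraries. Where no fragment was counted, the level may reach the worth of 3 fragments, which is 0.160 RPM in the glucose-deficient, 0.164 RPM in the glutamine-deficient and 0.793 RPM in the control library. Intervals are at 95% and cover counting error only, with fragments taken as independent. Duplicates made by PCR are not independent molecules, so the intervals may be too narrow. Variation between cultures is left out, since each condition is 1 library. Of the epithelial markers EPCAM, KRT8, KRT18, KRT19 and CDH1, 1 of 5 (KRT8, 6.48 RPM in the control) had a listed region, and of the mesenchymal markers VIM, CDH2 and FN1, 1 of 3 (VIM, 77.7 RPM). Of the leukocyte markers PTPRC, CSF1R and CD3E, 1 of 3 (CSF1R, 10.3 RPM) had a listed region. Endothelial, fibroblast, erythroid and plasma cell markers had no listed region.

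HSPA5, the HSP70 of the endoplasmic reticulum (ENSG00000044574), lies at chr9:125234853-125241330 on the minus strand in GENCODE release 29 (GRCh38), the source of all gene coordinates here. It stood at 0.160 RPM in the glucose-deficient library, 0.109 RPM in the glutamine-deficient and 264.8 RPM in the control library. The deposited values add 0.5 fragment to every region, and without it HSPA5 had 1 fragment, 0 fragments and 999.5 fragments in the same order. The control library alone held a measurable level, and the groups were far apart. By fragments per library total, HSPA5 was 4962-fold lower in the glucose-deficient than in the control library (interval 889 to 196191) and at least 1612-fold lower in the glutamine-deficient library, where 0 fragments were set to the floor of 3. That floor is a less cautious limit than the 95% interval, whose lower end for the same fold is 1309.

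HSP90B1, the HSP90 of the endoplasmic reticulum (ENSG00000166598), lies at chr12:103930107-103953645 on the plus strand. It stood at 0.240 RPM in the glucose-deficient, 0.246 RPM in the glutamine-deficient and 157.1 RPM in the control library, from 0, 0 and 589.5 fragments. It was the 1 member with no fragment in either deprived library, and its deposited levels there are the added constant over 9 regions. Relative to the control, HSP90B1 was at least 976-fold lower without glucose and at least 951-fold lower without glutamine by the floor of 3 fragments, with lower ends of the 95% intervals at 791 and 771. Its processed pseudogenes HSP90B2P and HSP90B3P, near-identical copies without introns, were listed too, with 246.5 and 201.5 control fragments. HSP90B2P had 1 fragment in the glucose-deficient library, and the alignment may split reads among the 3 genes, so the HSP90B1 values are uncertain.

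CANX, the membrane-bound lectin (ENSG00000127022), lies at chr5:179678628-179730925 on the plus strand and stood at 0.426 RPM in the glucose-deficient, 0.382 RPM in the glutamine-deficient and 352.7 RPM in the control library. These values hold 1, 0 and 1327 fragments, so most of the deprived RPM is the constant added to its 14 regions. CANX was 6588-fold lower in the glucose-deficient library (1180 to 260412) and, by the floor of 3 fragments, at least 2141-fold lower in the glutamine-deficient library than in the control (lower end of the 95% interval 1738).

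CALR, the soluble lectin (ENSG00000179218), lies at chr19:12938578-12944489 on the plus strand. It stood at 0.160 RPM in the glucose-deficient, 0.109 RPM in the glutamine-deficient and 146.9 RPM in the control library, from 1, 0 and 553.5 fragments. CALR was 2748-fold lower in the glucose-deficient (491 to 108732) and, by the floor of 3 fragments, at least 893-fold lower in the glutamine-deficient library than in the control (lower end of the 95% interval 724). A fold of this kind follows the control level and does not rank the 4 genes, since their deprived counts were all 0 or 1.

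**Figure D1:**
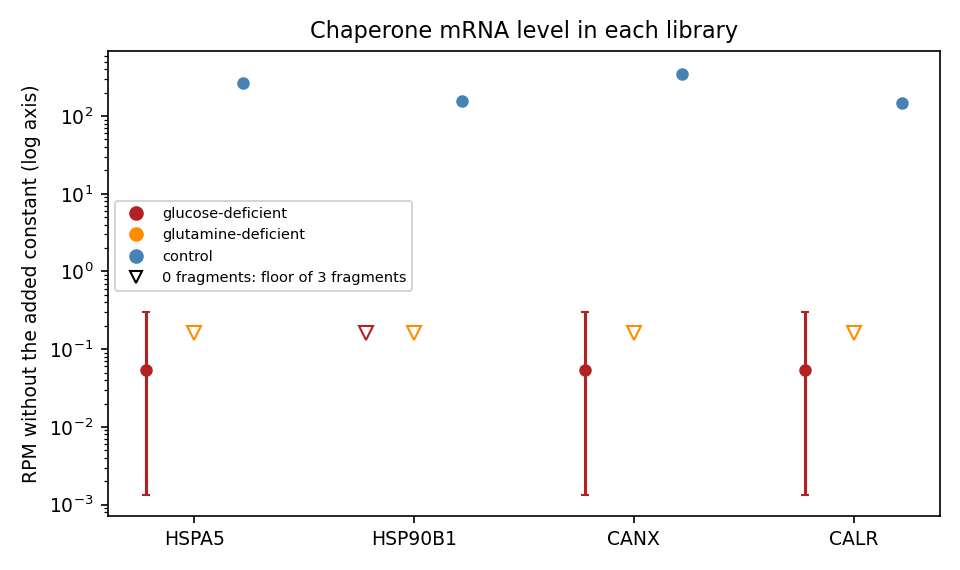
Level of each chaperone mRNA (RPM without the added constant, log axis) in the glucose-deficient, glutamine-deficient and control library, with 95% Poisson intervals of the fragments as bars. Filled points stand for 1 fragment or more and open triangles for 0 fragments, drawn at the floor of 3 fragments; each control value lies above 100 RPM and each deprived value at 1 or 0 fragments.

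Together the 4 mRNAs had 3 fragments without glucose, 0 without glutamine and 3469.5 in control culture, the last being 0.0917% of its fragments (Wilson interval 0.0887% to 0.0948%). On the log2(RPM + 1) scale the summed ratio was −8.86 for glucose-deficient against control and −8.96 for glutamine-deficient against control. All 4 were at least 2-fold lower in both deprived libraries. So were 99.9% of tested genes in each comparison, 5913 of 5920 and 5913 of 5917, and the call says nothing particular about the chaperones. Higher calls made up 0.118% and 0.0676% of tested genes and included no chaperone. RPM is a share of the library and the RNA is of bulk cells. Fewer cells holding chaperone RNA, less of it per cell, ATF4 filling the library and a different capture of the RNA therefore cannot be told apart.

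The share of ATF4 moves with these ratios, and its part in them was not tested. The ratios were also computed with ATF4, its pseudogenes and RNF157 taken out of the totals. The 4 chaperones then held 0.253 of their control share in the glucose-deficient library (0.0521 to 0.739), and in the glutamine-deficient library 0 of it, from 0 fragments (0 to 0.278). With median-of-ratios scaling the ratio for the glucose-deficient library was 0.368 with an interval that crosses 1 (0.0759 to 1.08), and for the glutamine-deficient library 0 (0 to 0.553). The other listed genes were low on this scale as well. For each 1000 control fragments the 4 chaperones kept 0.865 fragments in the glucose-deficient library (0.178 to 2.53). The 115 other genes with control counts between those of CALR and CANX, 553.5 to 1327 fragments, kept 1.40 (1.16 to 1.67), a value inside the interval of the chaperones. These 115 leave out mitochondrial genes and the ATF4 family, and neighbouring rows with equal values were counted once.

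In the glutamine-deficient library the chaperones kept 0 per 1000 control fragments (0 to 1.06), and 115 genes picked in the same way beside that library kept 0.0224 (0.00272 to 0.0811). They held 89101 control fragments, against 87939 for those picked beside the glucose-deficient library, so the sets may differ in part. No difference of the chaperones from genes of like control count was detectable at this depth. Counts of 0 or 1, as the chaperones had, were those of most of the 115 genes without glucose too: 59 had 0, 25 had 1 and 31 had more than 1 fragment. When glutamine was absent, 113 of the 115 genes picked beside that library had 0 fragments. Over all tested genes, 0 fragments were counted for 90.9% without glucose and for 99.2% without glutamine.

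**Figure D2:**
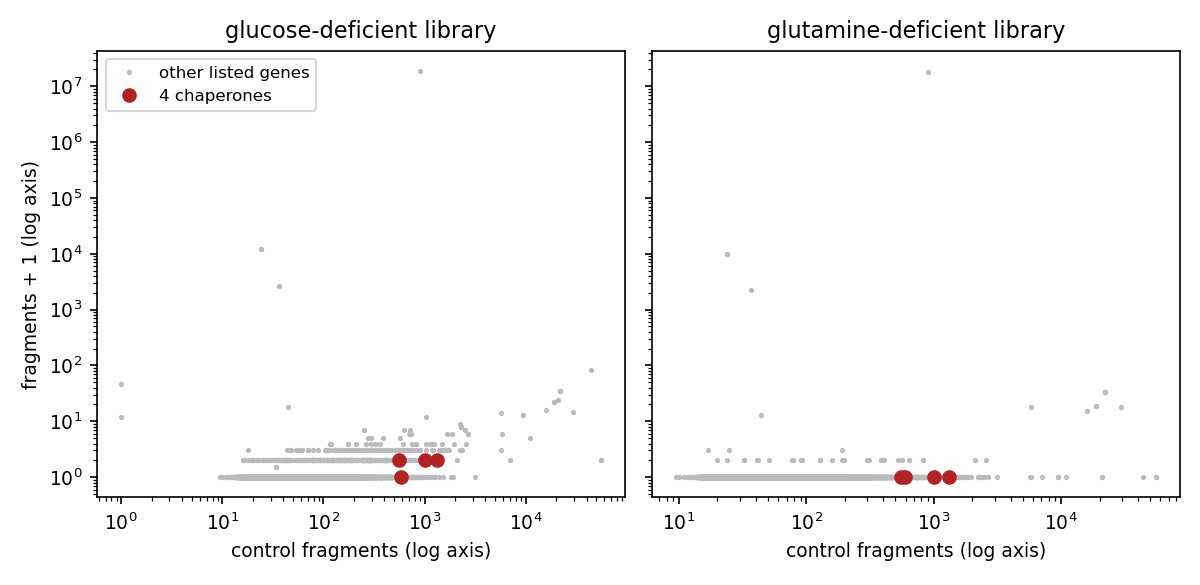
Fragments + 1 of each listed gene in the glucose-deficient (left) and glutamine-deficient (right) library against its control fragments, both axes log, with the 4 chaperones in red. The chaperones lie on the lines of 0 and 1 fragment among grey genes of like control count, while ATF4 lies near the top of both panels.

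Between the deprived libraries no chaperone reached 1 RPM in either, the level needed for a comparison, so none of them is among the 16 genes tested there, of which 18.8% were higher and 0% lower in the glucose-deficient library. The summed counts were 3 fragments without glucose and 0 without glutamine. The log2(RPM + 1) ratio of the sums was 0.10, and the counting interval of the inverse ratio, glutamine-deficient over glucose-deficient, ran from 0 to 2.48. A difference between the 2 deprivations was not detectable.

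The control library alone held enough fragments to set the 4 genes beside each other. Whether it was a pulldown or total RNA is not settled, so its values are shares of that library and cannot be read as mRNA levels alone. They also sum listed regions without coordinates, so how much of each exon length these regions cover is unknown. By summed RPM, CANX held rank 52, HSPA5 rank 72, HSP90B1 rank 179 and CALR rank 199 of 5921 genes, whose median was 14.8 RPM, but longer genes collect more fragments. Per kb of annotated exon, the control level was 67.8 RPM for HSPA5 (63.5 to 72.0), 56.6 RPM for CANX (53.3 to 59.4), 54.1 RPM for CALR (49.5 to 58.6) and 33.5 RPM for HSP90B1 (30.6 to 36.0). These intervals are of fragments without the added constant. CANX and CALR did not differ beyond their intervals, which overlap.

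Per kb of the longest coding transcript the order was CANX with 82.8 RPM, CALR with 77.2 RPM, HSPA5 with 67.8 RPM and HSP90B1 with 55.0 RPM. CANX and CALR overlapped again (78.0 to 86.9 and 70.6 to 83.6). HSPA5 led by exon length and stood below CANX by transcript length, where its interval (63.5 to 72.0) overlaps that of CALR. HSP90B1 was last among the 4 by both, but its place is uncertain. Reads of it may be listed under its pseudogenes HSP90B2P and HSP90B3P, at 65.6 and 53.5 RPM in the control library, which were not added. Of 71 genes with listed regions in the lists of endoplasmic reticulum genes and their relatives, the phosphatase subunit PPP1R15A (95.6 RPM per kb of exon) and ATF4 (94.5 RPM per kb) alone stood above HSPA5, CANX and CALR. The 4 chaperones held ranks 3, 4, 5 and 7 by exon length and lay within the top 7 by transcript length as well.

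Relatives of HSPA5 and HSP90B1 in other compartments were set beside them per kb of exon in the control library. HSPA8, the constitutive cytosolic HSP70, stood at 31.4 RPM per kb, HSPA1B, a stress-induced cytosolic HSP70, at 11.5 and HSPA9, the mitochondrial HSP70, at 8.95, all under HSPA5 with 67.8. HSPA1B and its neighbour HSPA1A are near-identical, so that value is uncertain. Of the HSP90 relatives, the cytosolic HSP90AB1 stood at 32.4, HSP90AA1 at 24.2 and the mitochondrial TRAP1 at 13.6 RPM per kb, against 33.5 for HSP90B1. Of the HSP110-type exchange factors, HSPH1 stood at 4.41 RPM per kb and HSPA4 at 37.3, above HSP90B1, whose value leaves out reads that its pseudogenes may hold. Per kb of the longest coding transcript this order turned round, with HSPA4 at 39.8 and HSP90B1 at 55.0, while HSPA8 stood at 61.9. Without glucose, HSP90AB1 had 3 fragments, HSPA4 2 and HSPA1B 1, while without glutamine all 8 listed relatives had 0.

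**Figure D3:**
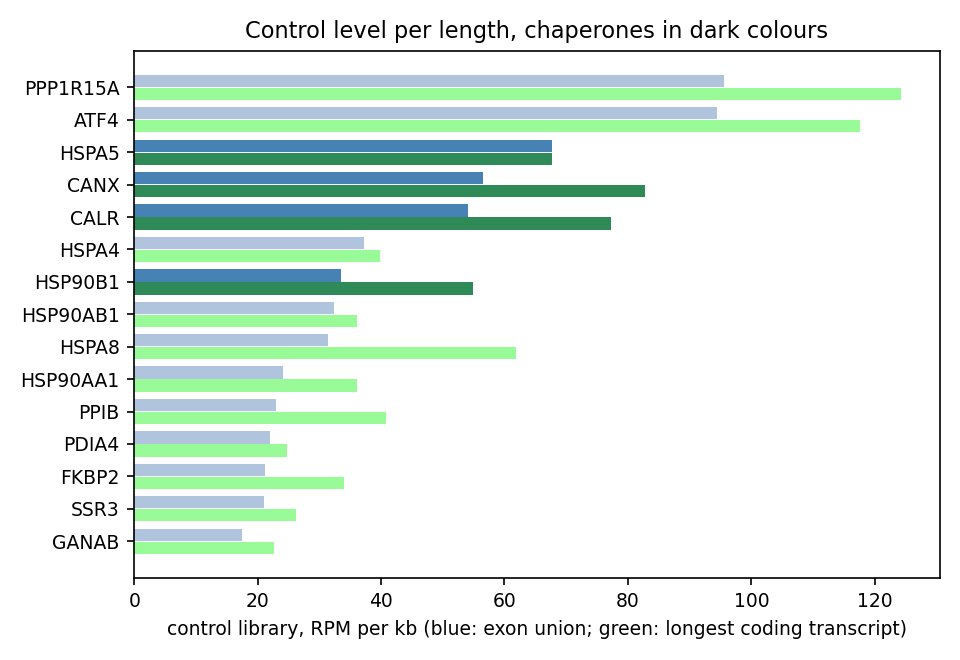
Control level per length (RPM per kb) of the 15 genes with the highest value per kb of exon union among the lists, with blue bars for the exon union and green bars for the longest coding transcript. Dark bars mark the 4 chaperones, which stand below PPP1R15A and ATF4, with HSPA5 at 67.8 and HSP90B1 at 33.5 RPM per kb of exon union.

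Region by region, the genes differed in how their control fragments were spread. The table lists regions without coordinates, and how they were drawn was not given in the sources used here. HSPA5 had 4 listed regions, with 148.3, 69.0, 30.9 and 16.5 RPM in the control library. Its highest region held 56.1% of its fragments (Wilson interval 53.0% to 59.1%), and the highest was 8.98 times the lowest. The single HSPA5 fragment of the glucose-deficient library fell in the second highest region, that of 69.0 RPM.

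CALR had 4 listed regions as well, at 64.0, 44.4, 22.6 and 15.9 RPM in the control, and the highest held 43.6% of its fragments (39.6% to 47.8%). Its fragment in the glucose-deficient library fell in that highest region. CALR was thus less concentrated in 1 region than HSPA5, whose interval lies above. The region at 44.4 RPM is listed on the next line, with the same values, under the microRNA gene MIR6515. MIR6515 lies at chr19:12940484-12940540 within CALR on the same strand and overlaps 0 annotated CALR exons. The control and glucose-deficient values of this region stood in 2 rows outside CALR, those of MIR6515 and WNK1. Equal values alone therefore do not show a shared region. The region at 15.9 RPM has the same control value as the single entry of the antisense gene AC092069.1 at chr19:12944118-12944487, which overlaps the last part of CALR. Its control and glucose-deficient values stood in 19 rows outside CALR, so equal values do not show a shared region. Whether counting used strand was not given in the sources used here, so CALR and this antisense gene cannot be told apart where they overlap.

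HSP90B1 had 9 listed regions between 7.40 and 32.8 RPM in the control, with a median of 17.2 RPM, and the highest held 21.0% of its fragments (17.9% to 24.4%). Its highest region was 4.43 times its lowest, and all 9 had 0 fragments in both deprived libraries. The region at 11.4 RPM has the same control value as the single entry of MIR3652, a microRNA gene at chr12:103930425-103930555, which overlaps HSP90B1 exons at the 5′ end. That microRNA gene starts inside the promoter window printed for HSP90B1. The control and glucose-deficient values of the region stood in 54 rows outside HSP90B1, so equal values do not show a shared region.

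CANX had 14 listed regions, more than any other of the 4, between 7.27 and 64.0 RPM in the control with a median of 21.4 RPM. The highest held 18.2% of its fragments (16.2% to 20.4%), and its 1 fragment in the glucose-deficient library fell there. At least 14 regions were listed for 0.591% of genes, at least 9 for 2.72% and at least 4 for 16.9%, and the median gene had 1. The annotation gives the longest coding transcript 15 exons in CANX, 18 in HSP90B1, 9 in CALR and 8 in HSPA5, and HSP90B1, with more exons than CANX, had fewer listed regions.

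The highest regions of CANX and CALR carry the same values, 241.5 control fragments and 1 fragment in the glucose-deficient library, although the genes lie on different chromosomes. No other region in the table has that pair of values. Of the 31 chaperone regions, 3 had a fragment without glucose and 0 without glutamine. Among 6832 other listed regions with 27 to 560.5 control fragments, the range of the chaperones' regions, 5.85% had a fragment without glucose, and among 6822 such regions 0.293% had 1 without glutamine.

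**Figure D4:**
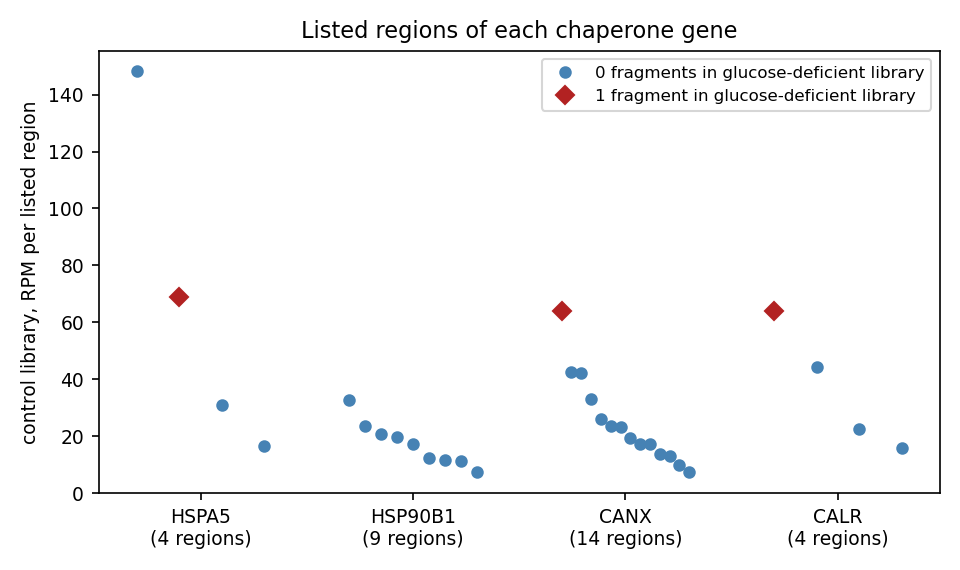
Control level (RPM) of each of the 31 listed regions, ordered from high to low within each gene. Red diamonds mark the regions with 1 fragment in the glucose-deficient library, the second highest of HSPA5 (69.0 RPM) and the highest of CANX and CALR (64.0 RPM each); blue points had 0.

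The other genes of endoplasmic reticulum folding were read from 6 lists with 102 genes, the 4 chaperones included, of which 63 had listed regions and were tested. ATF4 was higher in both deprived libraries and the other 62 were at least 2-fold lower in each, beside the 99.9% of all tested genes called lower. Of the 58 genes besides ATF4 and the chaperones, 9 had a fragment without glucose and 1 without glutamine. Their median control level was 25.6 RPM, and PPP1R15A was the highest at 295.6 RPM. Among these genes PPP1R15A alone stood above HSPA5 in summed control RPM.

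HSPA5, HSP90B1 and their partners formed 1 list, with 11 of 17 genes tested and all 11 lower in both comparisons. With HSPA5 and HSP90B1 counted in, the median log2 ratio was −3.85 for glucose-deficient and −3.84 for glutamine-deficient against control. Over all tested genes it was −3.92 and −3.93. HYOU1, the large HSP70 that exchanges nucleotide on HSPA5, stood at 52.1 RPM in the control library with 0 fragments in both deprived libraries. MANF, a secreted factor that binds HSPA5, had 1, 0 and 94.5 fragments in the glucose-deficient, glutamine-deficient and control library.

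The lectin and glycan list, CANX and CALR included, had 8 of 12 genes tested and lower, with medians of −6.05 and −6.08. CANX (−7.95 and −8.00) and CALR (−6.99 and −7.06) lay below these medians, so the medians in part restate them. GANAB and PRKCSH, the 2 subunits of glucosidase II that trims glucose so that CANX and CALR can bind and release a glycoprotein, stood at 88.2 and 86.6 RPM in the control library. PRKCSH had 1 fragment in the glucose-deficient library and GANAB 0. PDIA3, the disulfide isomerase that works with CANX and CALR, stood at 12.8 RPM in the control, with 0 fragments in both deprived libraries.

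Oxidative folding genes gave 11 of 19 tested and lower, with medians of −5.35 and −5.34. The disulfide isomerases P4HB, PDIA4 and TXNDC5 stood at 80.8, 72.1 and 66.1 RPM in the control library. FKBP2, a proline isomerase, was the 1 gene of the 58 with a fragment in the glutamine-deficient library, at 2, 1 and 127.5 fragments in the glucose-deficient, glutamine-deficient and control library. PDIA4 and ERP29, a folding factor, had 1 fragment each in the glucose-deficient library.

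Degradation genes gave 7 of 19 tested and lower, with medians of −3.71 and −3.71. FAF2, an adaptor of the extracting ATPase VCP, stood at 76.7 RPM, HERPUD1, a scaffold of the ubiquitin ligase complex, at 28.6 RPM and its partner SEL1L at 22.3 RPM in the control library. FAF2 and VCP had 1 fragment each in the glucose-deficient library.

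The signalling list had 8 of 14 genes tested, with ATF4 higher and 7 lower (medians −5.04 and −5.04). PPP1R15A, which reverses the PERK block on translation, had 0, 0 and 1116.5 fragments in the glucose-deficient, glutamine-deficient and control library. The transcription factors CREB3L2 and XBP1 stood at 109.3 and 30.8 RPM in the control. CREB3L2 had 1 fragment and the protease MBTPS1 had 2 in the glucose-deficient library. The sensors ATF6, ERN1 (IRE1) and EIF2AK3 (PERK) had no listed region and were not analysed here.

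The translocon list had 18 of 21 genes tested and lower, with medians of −4.83 and −4.82, and 0 of them had a fragment in either deprived library. SSR3 and SSR1, subunits of the translocon-associated protein complex, stood at 97.4 and 66.6 RPM in the control, and SRP72, of the signal recognition particle, at 56.6 RPM. For each 1000 control fragments this list kept 0 in the glucose-deficient library (0 to 1.65), against 0.865 (0.178 to 2.53) for the 4 chaperones. The intervals of the lists and of the chaperones overlap in both deprived libraries. List medians follow control levels, since nearly all deprived counts were 0.

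**Figure D5:**
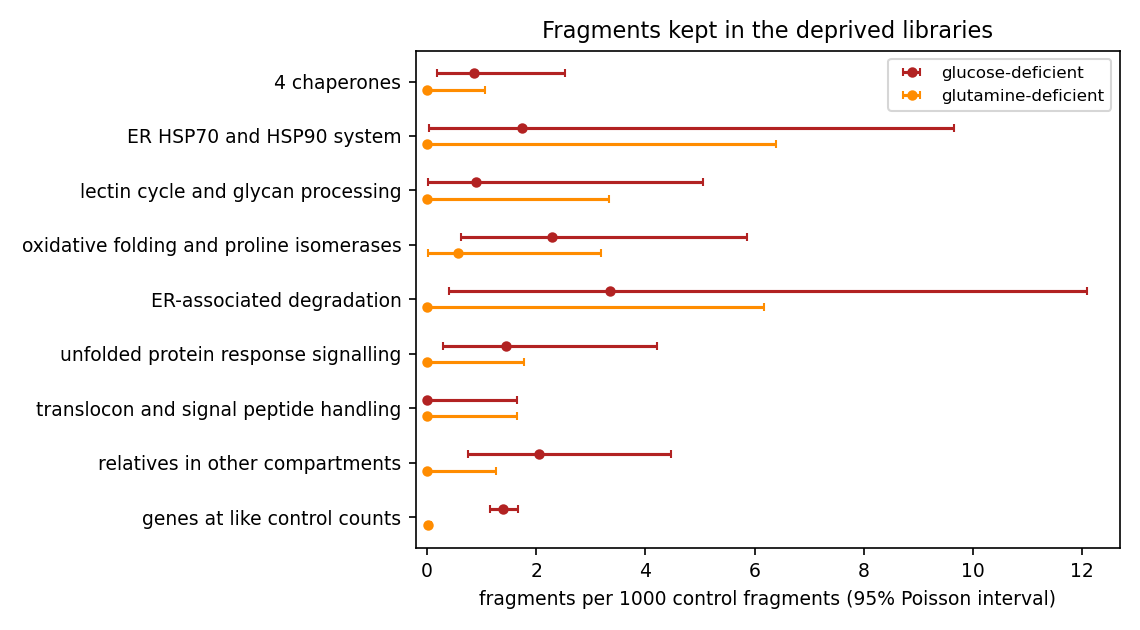
Fragments kept for each 1000 control fragments in the glucose-deficient and glutamine-deficient library, with 95% Poisson intervals as bars. Shown are the 4 chaperones, the lists without them (the signalling list also without ATF4) and 115 genes at like control counts, picked separately beside each deprived library. The 4 chaperones kept 0.865 without glucose and 0 without glutamine, and their intervals overlap those of the lists shown.

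Likeness to each chaperone was measured over the 3 libraries as the distance in log2(RPM + 1) among 5846 genes outside the lists. Nearest to HSPA5 were ACTG1, a cytoplasmic actin (distance 0.16, 239.4 RPM in the control), and RPS2P5, a ribosomal protein pseudogene (0.18). Nearest to HSP90B1 were ENSG00000244332, which has no symbol in the files (0.059), and KMT2C, a histone methyltransferase (0.060). Nearest to CANX were ENSG00000291338, also without a symbol (0.076), and OGT, the O-GlcNAc transferase (0.12). Nearest to CALR were CKB, a creatine kinase (0.056), and DDX39B, an RNA helicase (0.071). These genes had 0 to 2 fragments without glucose and 0 without glutamine, so the likeness rests on the control level and the number of listed regions.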

How the data were processed

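Values were deposited by the authors in RPM, per the file headers, with 0.5 fragment added to each region as the fixed steps of the values show. The submitters' processing notes name HISAT2 2.0.5 and hg38; region calling, annotation and strand use were not given in the sources used here. A label of the library without glutamine points to the glucose column, and the library's own file set the mapping. Control values moved in steps of 0.5 fragment (63.3% were whole fragments), deprived values in whole fragments (99.96% and 99.98%), within 0.00366 fragment below 1000 RPM. Gene values are sums of regions, and 691 rows of each block name no gene.

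Members and lists were chosen with earlier results of these data known. Ratios are log2(RPM + 1), called at 2-fold, for genes that reach 1 RPM in at least 1 of the compared libraries, where the pseudocount understates low genes. Folds and their exact conditional binomial intervals are of fragments without the added constant. Named genes were the members, the 3 highest and up to 4 genes with deprived fragments per list, relatives, pseudogenes and the 2 nearest genes; PDIA6, SERP1, XBP1, EIF2A, PDIA3 and the 3 sensors were added after values were seen. Lengths and overlaps come from GENCODE release 29. Alternatives were other pseudocounts, filters and scalings (edgeR 4.0.16, DESeq2 1.42.0), regions left out and another length. Fragment recovery was tested on simulated data. No test was run, because each group had 1 library, and no count test replaced it. Python 3.11.15, scipy 1.17.1, pandas 2.3.3, numpy 2.4.6, matplotlib 3.10.9 and R 4.3.3 were used.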

Additional observations from a re-analysis of the deposited data

How the results depend on the processing

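No paired analysis was possible because each group had 1 library. The summed log2 ratio of the chaperones for glucose-deficient against control, −8.86, was −2.88 with TMM scaling, −1.44 with median-of-ratios scaling, −1.98 when totals left out the ATF4 family and −2.03 when they left out mitochondrial genes and the 10 highest. For glutamine-deficient against control it lay between −9.93 and −7.31 under the pseudocounts and region choices tried. Scalings cannot move that value at 0 fragments, so they say nothing of its stability. The ratio of shares may reach 0.233 with TMM, 0.553 with median-of-ratios, 0.278 without the ATF4 family and 0.264 without mitochondrial genes and the 10 highest. TMM factors were 0.121 for the glucose-deficient, 0.0884 for the glutamine-deficient and 93.7 for the control library. Median-of-ratios factors rested on 23 genes with fragments in all 3 libraries. Genes called in each comparison with the control numbered 3755 with a filter of 10 RPM, because fewer genes were tested. With whole counting intervals beyond 2-fold and the ATF4 family out of the totals, an alternative chosen after seeing the data, 23 genes were called for glucose-deficient (11 higher, 12 lower) and 32 for glutamine-deficient against control (7 higher, 25 lower). With ATF4 out of the totals, higher and lower calls numbered 250 and 5449 for glucose-deficient against control, beside 7 and 5913. Between the deprived libraries the 3 genes called became 0 with a filter of 10 RPM, 0 with a pseudocount of 5 RPM and 1 with TMM scaling; the cause was not tested. Without its highest region the control level was 116.5 RPM for HSPA5, 288.7 RPM for CANX, 82.9 RPM for CALR and 124.3 RPM for HSP90B1. Depth limits the deprived libraries: 12936 and 14450 fragments outside the ATF4 family cannot give a level for single chaperones.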
